A study of Mus musculus with 7 samples.

Results

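The Hox genes of the mouse lie in 4 clusters, Hoxa, Hoxb, Hoxc and Hoxd, and their levels were followed in neural crest cells of the caudal pharyngeal arches with and without Chd7. All rows of the expression table with a protein-coding Hox symbol were taken, which gave 33 genes of the 19144 symbols in the table. Of these, 11 were Hoxa, 9 Hoxb, 5 Hoxc and 8 Hoxd genes. The annotation holds 6 more (Hoxb13, Hoxc9, Hoxc10, Hoxc11, Hoxc12 and Hoxd12), which were not analysed here.

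RNA was sequenced from sorted GFP-positive cells of pharyngeal arches 3 to 6 at E10.5 of mouse development, in 3 Chd7 deletion libraries (numbered 1, 3 and 4) and 4 wild-type libraries (numbered 1 to 4). The deletion embryos carried Wnt1-Cre2, Chd7 with loxP sites on both chromosomes (Chd7 loxp/loxp) and the mTmG reporter. The wild-type embryos are labelled Wnt1-Cre2, Chd7 +/+ and mTmG, although the cross described, Chd7 loxp/+ fathers with Chd7 loxp/loxp mothers, would pass on at least 1 loxP copy to every embryo. Wnt1-Cre2 acts in the neural crest and dorsal neural tube and switches the mTmG reporter from a red membrane protein to GFP, so that both groups carry the recombinase and the sorted cells descend from cells that expressed it. CHD7 is a chromatin remodelling enzyme that is mutated in CHARGE syndrome, and the study asks which genes lie downstream of it in cardiac neural crest. The labels do not say how many embryos went into a library. Chd7 itself lay between 7.499 and 7.91 FPKM after deletion and between 13.9 and 14.6 FPKM in the wild type. The deletion mean was 54.3% of the wild-type mean, over the whole gene and not the deleted stretch alone. FPKM is the number of reads scaled for gene length and library total, so levels of different genes can be set side by side.

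Hox genes encode homeodomain transcription factors. Genes at the same position in different clusters form a paralog group, numbered from 1 at the end that is active in the most anterior tissue to 13 at the end that is active in the tail, limbs and urogenital tract. Neural crest cells carry the Hox genes of the hindbrain level they leave into the arches, where in mice Hoxa2 gives the second arch its identity and the group 3 genes, Hoxa3 above all, are needed for the thymus, the parathyroid and the arteries of the third arch. On mm10 the Hoxa cluster lies on chromosome 6, and the Hoxb cluster runs along chromosome 11 from 96194316 to 96368256, the Hoxc cluster along chromosome 15 from 102921103 to 103036852 and the Hoxd cluster along chromosome 2 from 74668310 to 74765142.

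The 250 bases upstream of the transcription start are shown for Hoxa2 and Hoxa5, which were lower in every deletion library than in every wild-type library, and for Hoxb4, whose values overlapped between the groups. The sequences are from RefSeq (GRCm38.p6, read along the gene's strand), which matched 21 of the 33 genes. Capitals mark matches to TGATNNAT, the site bound by PBX and HOX proteins together, and to TGACAG, the core of the MEIS site, on either strand.
Hoxa2 (chr6:52164832-52165081, minus strand): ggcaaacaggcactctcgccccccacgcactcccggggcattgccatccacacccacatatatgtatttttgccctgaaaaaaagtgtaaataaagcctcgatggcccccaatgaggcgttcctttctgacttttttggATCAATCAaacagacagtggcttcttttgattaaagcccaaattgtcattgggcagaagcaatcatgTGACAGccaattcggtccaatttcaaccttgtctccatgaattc
Hoxa5 (chr6:52204588-52204837, minus strand): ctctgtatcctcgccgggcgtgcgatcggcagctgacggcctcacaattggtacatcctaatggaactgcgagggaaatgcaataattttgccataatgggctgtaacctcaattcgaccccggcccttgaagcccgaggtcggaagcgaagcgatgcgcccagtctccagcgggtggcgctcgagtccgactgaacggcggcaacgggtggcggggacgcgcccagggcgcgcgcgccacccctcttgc
Hoxb4 (chr11:96318017-96318266, plus strand): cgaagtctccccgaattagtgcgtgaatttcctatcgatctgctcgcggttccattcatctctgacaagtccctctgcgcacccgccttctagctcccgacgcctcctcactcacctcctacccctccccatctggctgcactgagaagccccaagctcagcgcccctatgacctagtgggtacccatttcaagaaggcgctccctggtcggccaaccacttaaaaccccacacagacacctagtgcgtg
The Hoxa2 window held 1 match to each motif, and the Hoxa5 and Hoxb4 windows held none. Among 32851 RefSeq promoters of this length, TGATNNAT occurred in 7.68% and TGACAG in 15.9%, and among the 23 Hox promoters they occurred in 4 and 2. The window held 6 CpG dinucleotides in Hoxa2, 28 in Hoxa5 and 14 in Hoxb4, against a median of 13 over the Hox promoters and 6 over all promoters.

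In every library the Hox RNA was mainly from paralog groups 2 to 4. Of the summed Hox FPKM, group 3 held 36.1% after deletion and 34.02% in the wild type, group 4 held 25.8% after deletion and 25.96% in the wild type, and group 2 held 24.4% after deletion and 25.05% in the wild type. Group 5 held 8.05% after deletion and 9.27% in the wild type, and groups 6 to 9 held 3.48% after deletion and 3.78% in the wild type. Groups 10 to 13 held 0.0188% after deletion and 0.0348% in the wild type. The highest wild-type level was that of Hoxb3, at 17.3 FPKM ± 1.02 (SD, n = 4), and its libraries did not overlap those of the next gene. Hoxa2 (13.8 ± 0.270 FPKM), Hoxb2 (12.9 ± 1.34 FPKM), Hoxd3 (11.5 ± 1.15 FPKM) and Hoxb4 (10.1 ± 0.629 FPKM) followed, each overlapping its neighbour in this order. Below a gap came Hoxd4 (8.09 ± 0.614 FPKM), Hoxa3 (7.37 ± 0.827 FPKM), Hoxc4 (6.70 ± 0.861 FPKM), Hoxb5 (4.70 ± 0.975 FPKM), Hoxa5 (3.17 ± 0.612 FPKM) and Hoxa4 (2.76 ± 0.242 FPKM), again with overlapping neighbours. Hoxc5 (1.99 ± 0.679 FPKM) and Hoxb6 (1.41 ± 0.790 FPKM) were among the lowest of the 14 Hox genes that averaged 1 FPKM or more across the 7 libraries. These 14 were tested for an effect of the deletion, and the other 19 were below that minimum.

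**Figure D1:**
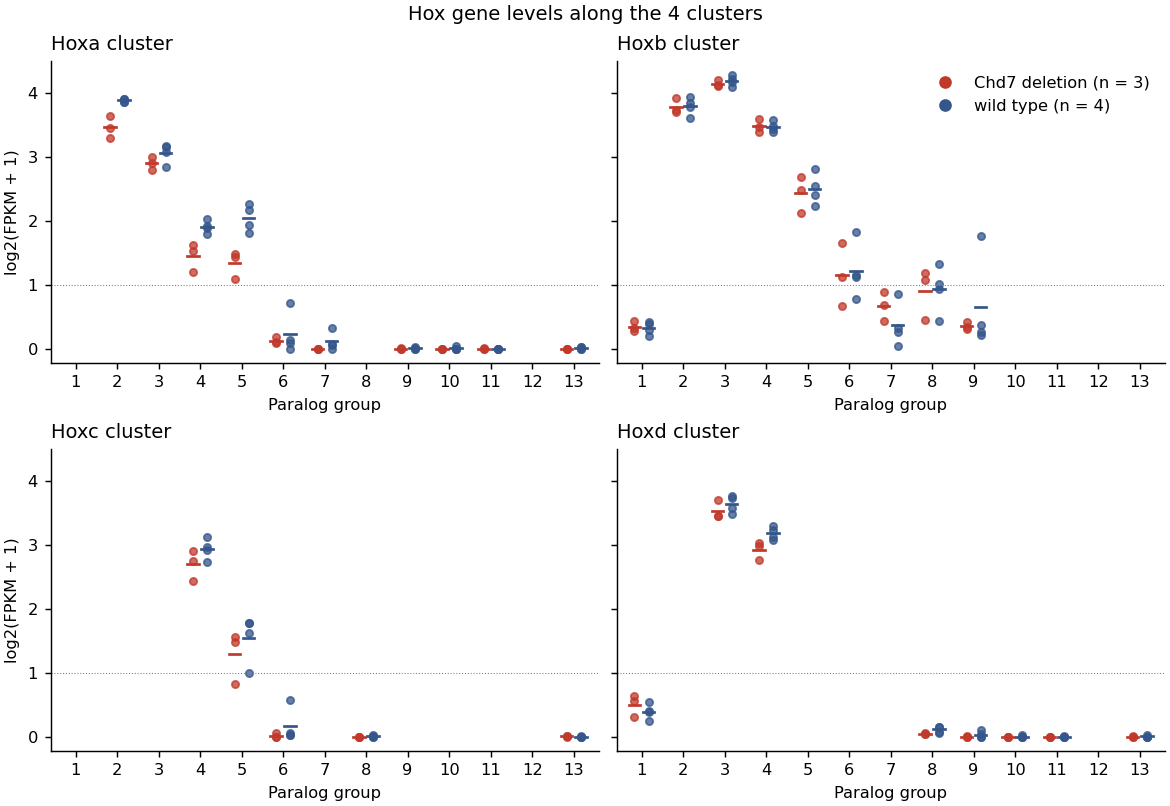
Level of 32 of the Hox genes, as log2(FPKM + 1), against its paralog group in the 4 clusters; each point is a library, horizontal lines are means, and the dotted line is 1 FPKM. Levels are highest in groups 2 to 4 and close to 0 from group 10 on, and in the Hoxa cluster the deletion libraries of Hoxa2, Hoxa4 and Hoxa5 lie below all wild-type libraries.

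The summed level of the Hoxa cluster was lower in every deletion library than in every wild-type library, while that of the Hoxb cluster differed by less than its spread between libraries. The summed Hoxa FPKM was 19.9, 23.8 and 20.0 in deletion libraries 1, 3 and 4, against 28.0, 28.8, 29.4 and 29.0 in wild-type libraries 1 to 4. The deletion mean was 73.7% of the wild-type mean. Hoxa2 alone made up 10.1 of the mean of 21.2 FPKM after deletion and 13.8 of the mean of 28.8 FPKM in the wild type. Hoxa3 overlapped between the groups, while Hoxa4 and Hoxa5 did not. For Hoxb the sum was 47.5 ± 3.85 FPKM (SD, n = 3) after deletion and 48.7 ± 3.15 FPKM (SD, n = 4) in the wild type, 97.5% of the wild-type mean. The Hoxc sum stood at 80.1% (7.09 ± 1.63 FPKM after deletion against 8.84 ± 1.55 FPKM in the wild type) and the Hoxd sum at 88.6% (17.8 ± 1.85 FPKM after deletion against 20.1 ± 1.87 FPKM in the wild type), both with overlapping groups. Expressed as a share of all Hox FPKM in the same library, which does not depend on the scaling between libraries, Hoxa took 21.2%, 23.3% and 23.7% after deletion and between 25.7% and 29.3% in the wild type. The Hoxb share was 49.4% to 51.8% after deletion and 44.7% to 46.7% in the wild type. The cluster shares add up to the whole, so a lower Hoxa share must be matched by a higher share elsewhere. The Hoxb sum itself overlapped between the groups. Each of these sums is given as a description, without a test.

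No Hox gene passed the threshold in the comparison of all 7 libraries, a limma test on log2(FPKM + 1) adjusted over all 11039 genes tested, in which 0.888% of the genes passed an adjusted p of 0.05 and 0.48% passed and were lower. Without adjustment, 4 of the 14 Hox genes had a p below 0.05 (Hoxa2, Hoxa4, Hoxa5 and Hoxd4), all lower after deletion, where 7.38% of all genes tested had such a p and 4.82% had it and were lower. The groups did not overlap for the same 4 genes, 28.6% of the 14, against 9.17% of all genes in either direction and 6.17% in the lower direction. The median log2 fold change of the 14 was -0.13 and that of all genes -0.04, and 13 of the 14 lay below 0, where 65.4% of all genes did. Without deletion 4 the median of the 14 was -0.046 and that of all genes -0.053. With the replicate number as a block, 2 Hox genes fell, Hoxa2 and Hoxa5, and none rose, while 3.32% of all genes passed and 2.27% passed in the lower direction. Wild type 2 has no partner, so the block fit takes its fold changes from the 3 numbered pairs alone, and they equal those with wild type 2 left out. Leaving out wild type 2 with no block called no Hox gene. With the block, 8 of the 14 were lower at an unadjusted p below 0.05, or 57.1%, where 17.7% of all genes were. Replicate numbers are shared by the groups, and libraries with the same number deviated together. Of the 366 genes of all kinds that passed with the block, 251 were lower, and with block and median-ratio scaling 275 of 608 were lower, with the same pair of Hox genes among them. With the block and no rescaling the median was -0.17 for the 14 and -0.07 for all genes. In bulk RNA, fewer cells of one kind and less RNA per cell cannot be told apart.

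**Figure D2:**
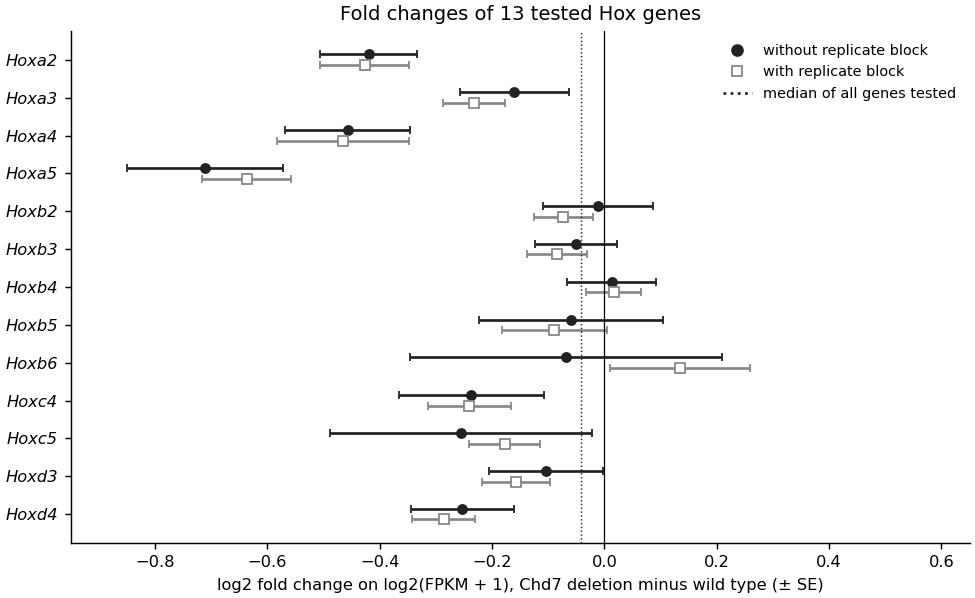
Log2 fold change (Chd7 deletion minus wild type, on log2(FPKM + 1)) with its standard error for 13 of the tested Hox genes, without (filled circles) and with (open squares) the replicate block. Hoxa5, Hoxa4 and Hoxa2 lie furthest below 0, and the Hoxb genes lie close to 0 or to the median of all genes (dotted line, -0.04).

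Hoxa5, which in mice is needed for the airways and for vertebrae at the base of the neck, showed the largest difference of the 14. Its level was 1.79, 1.70 and 1.14 FPKM in deletion libraries 1, 3 and 4, against 2.83, 3.83, 3.52 and 2.50 FPKM in wild-type libraries 1 to 4. The highest deletion library was below the lowest wild-type library, and the deletion mean was 48.7% of the wild-type mean. On the log2 scale the difference was -0.71 ± 0.14 (SE) in limma, at an adjusted p of 0.0723, and -0.64 ± 0.079 (SE) with the replicate block, at an adjusted p of 0.0164. Exact permutation of the labels, two-sided over 35 arrangements, gave p = 0.0286, which is as small as 3 libraries against 4 can reach. This p largely restates that the groups do not overlap. It was not adjusted over genes and takes no account of the numbered pairs. The same holds for the exact p of Hoxa2, Hoxa4 and Hoxd4 below. The Hoxa5 values rest on 58 to 118 reads per deletion library and 134 to 290 per wild-type library, where reads are the smallest whole numbers that give the deposited values. No other annotated gene overlaps an exon of Hoxa5, which lies on chromosome 6 from 52201754 to 52204587.

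Hoxa2, the selector gene of the second arch, was at 8.86, 11.4 and 9.93 FPKM in deletion libraries 1, 3 and 4, against 13.9, 13.5, 13.5 and 14.05 FPKM in wild-type libraries 1 to 4. The wild-type libraries lay close together, and each deletion library lay below all of them, at a mean of 73.3% of theirs. The log2 difference was -0.42 ± 0.087 (SE) in limma, at an adjusted p of 0.0939. With the block it was -0.43 ± 0.079 (SE), and limma's adjusted p was 0.0478. The exact permutation p, two-sided, was 0.0286. Hoxa2 spans 52162417 to 52164831 of chromosome 6, and an annotated gene, Gm28308, shares exon sequence with it and with Hoxa3.

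Hoxa4, a gene of the hindbrain and neck vertebrae in mice, was at 1.88, 2.08 and 1.30 FPKM after deletion (libraries 1, 3 and 4), against 2.48, 2.69, 2.79 and 3.07 FPKM in wild-type libraries 1 to 4. The groups did not overlap, and the deletion mean was 63.6% of the wild-type mean. Its log2 difference was -0.46 ± 0.11 (SE), at an adjusted p in limma of 0.159 without and 0.0961 with the block, and the exact permutation p was 0.0286. These values rest on 54 to 103 reads per deletion library and 119 to 166 per wild-type library, and Gm29430 overlaps an exon of Hoxa4 on the other strand. Hoxa3 was at 5.96, 6.99 and 6.45 FPKM after deletion and at 7.43, 6.18, 7.89 and 7.97 FPKM in the wild type. Its groups overlapped through wild type 2, and its log2 difference was -0.16 ± 0.097 (SE), at an adjusted p in limma of 0.883. It was lower after deletion in each of the 3 numbered pairs, and with the block the log2 difference was -0.23 ± 0.055 (SE), at an adjusted p in limma of 0.0857.

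In the Hoxb cluster none of the 5 tested genes had an unadjusted p below 0.05 in limma, and the log2 fold changes lay between -0.07 and 0.01. Hoxb2, the paralog of Hoxa2, was at 11.98, 14.1 and 12.3 FPKM in deletion libraries 1, 3 and 4, against 13.3, 11.2, 14.4 and 12.7 FPKM in wild-type libraries 1 to 4. Hoxb3, the most abundant Hox gene, was at 16.5, 17.4 and 16.2 FPKM after deletion, against 18.5, 16.1, 17.7 and 17.1 FPKM in the wild type. For both genes the deletion libraries lay inside the range of the wild type, and noncoding Hoxb3os overlaps exons of both on the other strand. Hoxb2 and Hoxb3 were also lower after deletion in each numbered pair. With the block their log2 differences were -0.073 and -0.084, at adjusted p-values in limma of 0.413 and 0.364. Hoxb4 was at 10.03, 11.04 and 9.47 FPKM after deletion, against 9.80, 10.1, 10.9 and 9.44 FPKM in the wild type, and an interval of 2 standard errors around its log2 fold change ran from -0.15 to 0.17. Hoxb5 was at 5.46, 4.61 and 3.37 FPKM after deletion, against 4.82, 4.30, 5.99 and 3.69 FPKM in the wild type, with library 4 the lowest in both groups. Hoxb6 ranged from 0.599 to 2.14 FPKM after deletion and from 0.716 to 2.55 FPKM in the wild type, the widest relative spread of these 5 genes. With equal totals Hoxb2, Hoxb3 and Hoxb5 came out above 0 (log2 fold changes of 0.064, 0.027 and 0.0089), as did the median of all genes, at 0.027 against -0.04 as deposited.

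Among the 4 tested Hoxc and Hoxd genes, Hoxd4 was the only gene whose groups did not overlap. It was at 7.18, 6.96 and 5.79 FPKM in deletion libraries 1, 3 and 4, against 8.41, 7.48, 8.79 and 7.69 FPKM in wild-type libraries 1 to 4. Its log2 difference was -0.25 ± 0.091 (SE), at an adjusted p in limma of 0.485 without and 0.0547 with the block, and the exact permutation p was 0.0286. Hoxd4 and Hoxd3 share annotated exon sequence on the same strand, so how their reads were divided is uncertain. Hoxd3, which acts with Hoxa3 in the neck skeleton of mice, was at 9.95, 12.1 and 9.92 FPKM after deletion, against 12.3, 10.2, 12.6 and 10.96 FPKM in the wild type, with overlapping groups. Hoxc4 was at 5.75, 6.49 and 4.43 FPKM after deletion, against 7.73, 6.61, 6.81 and 5.63 FPKM in the wild type (log2 difference -0.24 ± 0.13 SE, adjusted p = 0.827 in limma). Hoxc5 ranged from 0.785 to 1.95 FPKM after deletion and from 1.001 to 2.43 FPKM in the wild type, and shares annotated exon sequence with Hoxc10. In Hoxc4 and Hoxc5 the lowest library of each group was number 4. Hoxc4, Hoxc5, Hoxd3 and Hoxd4 were each lower after deletion in all 3 numbered pairs, as were Hoxb2 and Hoxb3. The share of all genes lower in all 3 pairs was not counted, and the median of all genes with the block was -0.07. None of the 4 Hoxc and Hoxd genes passed with the block, at adjusted p-values in limma of 0.14, 0.183, 0.203 and 0.0547.

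**Figure D3:**
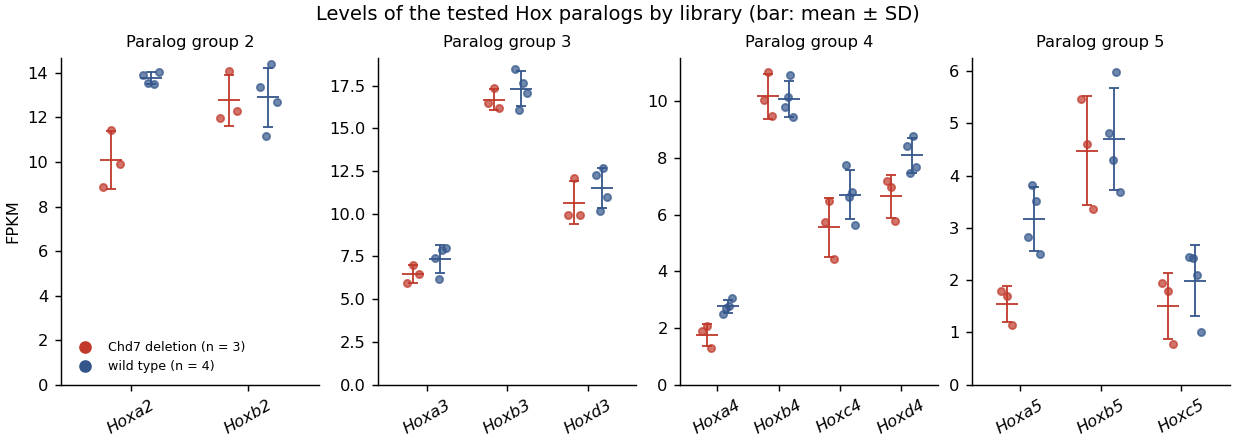
FPKM of the 12 tested genes of paralog groups 2 to 5 in each library, with group means and SD; each panel is a paralog group and has its own axis from 0. Deletion and wild-type points separate for Hoxa2, Hoxa4, Hoxa5 and Hoxd4 and overlap for the Hoxb genes.

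Whether the Hoxa genes differed from their paralogs was examined by the ratio of 2 paralogs within a library, which no scaling of libraries can change. All 13 pairs among the tested genes of groups 2 to 5 were compared. This comparison was not planned, and it uses the same FPKM values as the gene tests, so it is not an independent check. The Hoxa2 to Hoxb2 ratio was 0.740, 0.813 and 0.809 in deletion libraries 1, 3 and 4, against 1.04, 1.21, 0.939 and 1.11 in wild-type libraries 1 to 4. The Hoxa5 to Hoxb5 ratio was 0.327, 0.368 and 0.339 after deletion, against 0.586, 0.890, 0.588 and 0.677 in the wild type, and the Hoxa4 to Hoxb4 ratio was 0.187, 0.189 and 0.138 after deletion, against 0.254, 0.265, 0.256 and 0.325 in the wild type. In these 3 pairs every deletion library was below every wild-type library. On the log2 scale the differences were -0.44, -0.97 and -0.69, each with an exact two-sided permutation p of 0.0286 and a Benjamini-Hochberg value over the 13 pairs of 0.0929. The ratio of Hoxb4 to Hoxd4 was higher after deletion, by 0.30 on the log2 scale, with the same exact p and adjusted value. None of the 13 pairs passed 0.05 after adjustment. Groups did not overlap in 3 of the 8 pairs with a Hoxa gene. The same held for 2 of the 5 pairs without one (Hoxb4 with Hoxc4 and with Hoxd4). Hoxa4 overlapped against Hoxc4 and against Hoxd4 (exact permutation p = 0.0857 for each). Hoxa5 against Hoxc5 (exact permutation p = 0.143) and Hoxa3 against Hoxd3 (exact permutation p = 0.486) overlapped too. Hoxa3 against Hoxb3 differed by -0.13 (exact permutation p = 0.257), and Hoxc4 against Hoxd4 by 0.01 (exact permutation p = 0.943).

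**Figure D4:**
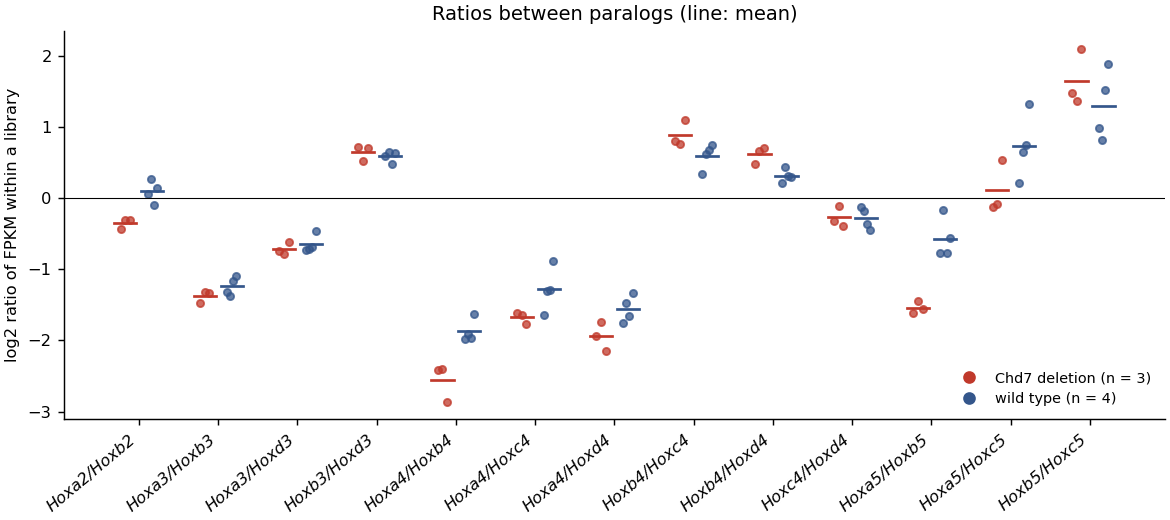
Log2 ratio of FPKM of 2 paralogs within the same library for the 13 pairs; each point is a library and lines are means. For Hoxa2/Hoxb2, Hoxa4/Hoxb4 and Hoxa5/Hoxb5 the 3 deletion libraries lie below the 4 wild-type libraries. For Hoxb4/Hoxc4 and Hoxb4/Hoxd4 they lie above them.

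Some markers of arch mesenchyme and neural crest moved with the genotype beside these genes. All 8 arch mesenchyme markers were detected, and their summed level was 67.8 to 100.3 FPKM after deletion and 117.1 to 160.6 FPKM in the wild type. Of these 8 genes, 1 fell in limma (Hand2) and 5 with the block (Hand2, Prrx1, Prrx2, Pdgfra and Twist1). Of all genes tested, 0.888% passed in limma and 0.48% passed and were lower. With the block 3.32% passed and 2.27% passed and were lower. All 8 neural crest markers were detected, with sums of 112.5 to 134.7 FPKM after deletion and 91.8 to 117.1 FPKM in the wild type, and in limma 2 of them rose (Sox10 and Foxd3). With the block Snai2 of this list also fell, as did Twist1, which is in both lists. Sums overlapped between the groups for hindbrain or neural tube markers (9.27 to 18.9 after deletion and 7.82 to 19.8 FPKM in the wild type) and for neuronal markers (188.1 to 320.1 after deletion and 177.5 to 343.4 FPKM in the wild type). Marker sums for somites (5.32 to 8.33 FPKM after deletion and 7.54 to 12.1 FPKM in the wild type), lateral or cardiac mesoderm, endothelium, blood and epithelium overlapped as well. With the block the somite gene Meox1 fell (4.41, 6.47 and 7.30 FPKM in deletion libraries 1, 3 and 4, against 6.29, 5.96, 8.05 and 10.9 FPKM in wild-type libraries 1 to 4). The somite sum was lower after deletion in each of the 3 numbered pairs. No listed marker in the table was at 0 in all libraries. The part of these differences in the Hoxa levels was not tested.

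Of the 19 Hox genes below the minimum, 11 stayed below 0.2 FPKM in every library. Hoxb1, Hoxb7, Hoxb8, Hoxb9 and Hoxd1 were above 0 in all libraries, as was Hoxd8, 1 of the 11. Hoxb8 was at 0.363 to 1.28 FPKM after deletion and 0.357 to 1.499 FPKM in the wild type, and Hoxb7 at 0.349 to 0.852 FPKM after deletion and 0.0276 to 0.820 FPKM in the wild type. In paralog group 1, Hoxd1 was at 0.238 to 0.564 FPKM after deletion and 0.186 to 0.463 FPKM in the wild type, and Hoxb1 at 0.219 to 0.357 FPKM after deletion and 0.152 to 0.334 FPKM in the wild type. All of these overlapped between the groups. Hoxb1, which marks a hindbrain segment in the mouse, rested on 14 to 24 reads per deletion library and 9 to 28 per wild-type library. The 7 genes of groups 10 to 13 summed to 0.0117 to 0.0260 FPKM after deletion and 0.0131 to 0.0579 FPKM in the wild type, with at most 2 reads per library in each of the 3 genes whose reads could be counted (Hoxa13, Hoxc13 and Hoxd13). Hoxd8 was the only one of the 19 whose groups did not overlap (0.0286 to 0.0395 after deletion and 0.0487 to 0.119 FPKM in the wild type), on 2 to 3 reads per deletion library and 3 to 10 per wild-type library. Groups did not overlap for 9.17% of all genes tested, and the share among genes below the minimum was not counted.

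Wild type 2 stood apart in Hoxb9, Hoxc6, Hoxa6 and Hoxa7, which were named here after their values were seen. Hoxb6 and Hoxb8 were also highest in wild type 2 but close to deletion 1, while Hoxb7 was highest in deletion 1 and Hoxd8 in wild type 3. Hoxb9, which acts in the thoracic region, was at 0.242, 0.263 and 0.342 FPKM in deletion libraries 1, 3 and 4, against 0.296, 2.41, 0.166 and 0.208 FPKM in wild-type libraries 1 to 4. Wild type 2 held 263 Hoxb9 reads, where the other libraries held 14 to 25. Hoxc6 was at 0.498 FPKM in wild type 2 on 32 reads and at no more than 2 reads elsewhere, Hoxa6 at 0.638 FPKM on 24 reads with at most 4 elsewhere, and Hoxa7 at 0.254 FPKM on 20 reads with at most 3 elsewhere. Summed over groups 6 to 9, the level was 4.62, 3.38 and 1.77 FPKM after deletion, against 2.86, 8.82, 2.98 and 1.43 FPKM in the wild type. The ratio of the deletion mean to the wild-type mean was 0.809 with all libraries and 1.34 without wild type 2, so that 1 library sets the direction. The 4 markers of the tail bud and posterior trunk in the table (T, Cdx1, Wnt3a and Tbx6, with Cdx2 and Cdx4 not analysed here) were below the minimum and were not tested. Their sum was 0.719 to 0.984 FPKM after deletion, 0.722 FPKM in wild type 2 and 0.418 to 0.784 FPKM in the other wild-type libraries. Of the 0.722 FPKM in wild type 2, 0.495 FPKM was Wnt3a, which the dorsal neural tube also expresses. The part of these markers in the Hoxb9, Hoxc6, Hoxa6 and Hoxa7 levels was not tested.

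Library number 4 was the lowest of its group for groups 5 and 6 to 9 in both genotypes. The group 5 sum was 9.20, 8.10 and 5.30 FPKM in deletion libraries 1, 3 and 4, against 10.1, 10.6, 11.6 and 7.19 FPKM in wild-type libraries 1 to 4. Hindbrain or neural tube markers were also lowest in number 4, with sums of 18.9, 18.0 and 9.27 FPKM after deletion, against 19.8, 17.9, 13.5 and 7.82 FPKM in the wild type. Neuronal markers followed the same order, with 188.1 FPKM in deletion 4 and 177.5 FPKM in wild type 4 the lowest of their groups. The part of these marker differences in the Hox levels was not tested.

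**Figure D5:**
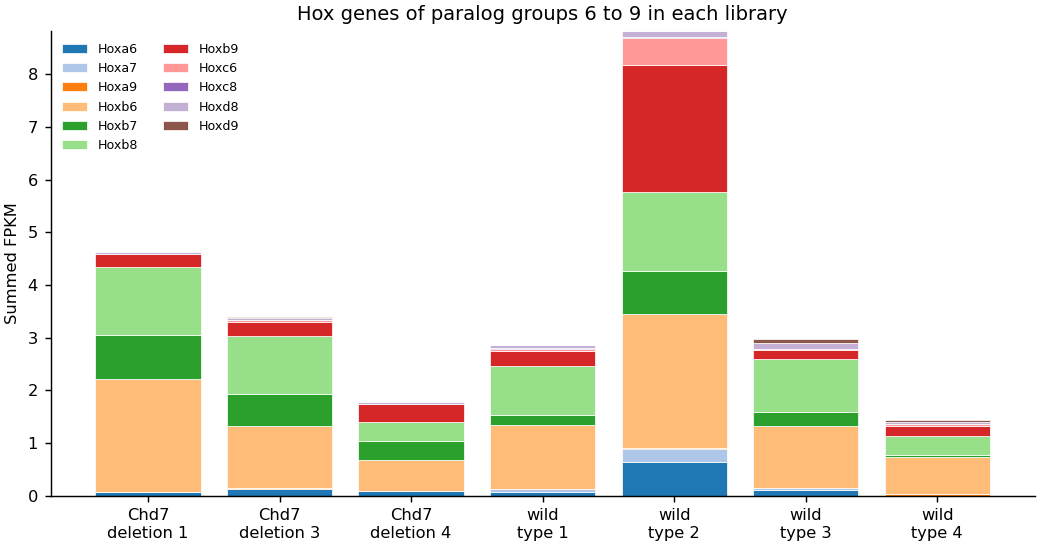
Summed FPKM of the 11 Hox genes of paralog groups 6 to 9 in each library, stacked by gene. Wild type 2 reaches 8.82 FPKM with a large Hoxb9 segment, and number 4 is the lowest library of each genotype.

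Among genes that work with or upstream of the Hox genes, few passed the test. Of the 8 tested TALE cofactors, the MEIS, PBX and PKNOX proteins that bind DNA together with HOX proteins, none passed in limma (background 0.888%), 2 had an unadjusted p below 0.05 and both of these fell with the block. Meis2 was at 24.0 ± 2.16 FPKM (SD, n = 3) after deletion, against 30.5 ± 2.34 FPKM (SD, n = 4) in the wild type. Meis1 was at 25.8 ± 0.790 FPKM after deletion and 31.4 ± 1.96 FPKM in the wild type. With the block, limma's adjusted p was 0.0231 for Meis2 and 0.0371 for Meis1. Of 15 tested retinoic acid genes, whose signal switches on anterior Hox genes, 1 rose (Rxrg, 2.11 ± 0.174 after deletion against 0.739 ± 0.149 FPKM in the wild type). With the block 3 also fell, among them the receptor gene Rarg and the retinol dehydrogenase gene Rdh10. With the block 2.27% of all genes fell, the share against which the 2 of 8 TALE genes and 3 of 15 retinoic acid genes stand. Of 3 tested hindbrain regulators of Hox genes none passed, and Egr2, which drives group 2 genes in the hindbrain, had an unadjusted p below 0.05 and rose with the block (1.67 ± 0.274 FPKM after deletion against 1.05 ± 0.255 FPKM in the wild type). None of 23 tested Polycomb, trithorax and related chromatin genes passed in limma with or without the block, and 2 had an unadjusted p below 0.05, both lower, where 4.82% of all genes tested had such a p and were lower.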

How the data were processed

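The authors deposited 1 table of FPKM values for 7 libraries made from total RNA with ribosomal RNA depletion, random priming and a strand-specific kit, per the labels' protocols. Tools in the submitters' processing notes are Partek, HISAT2, SAMtools, Trimmomatic 0.38 and bcl2fastq 2.18.0.12, with mm10 as the build. The sources used here give neither the annotation nor whether counting used strand, so reads of a Hox gene and of an antisense partner may not be told apart. Rows with a date in place of a symbol (25 of 19169) were left out.

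The 11039 genes averaging 1 FPKM or more entered a 2-sided limma test (limma 3.58.1, R 4.3.3) on log2(FPKM + 1), with an intensity trend and Benjamini-Hochberg adjustment over all of them at 0.05. The log2 fold change is deletion minus wild type and understates the change of low genes. The pseudocount was 1. The fit without a block was tested on simulated data with independent noise in each library. The fits with the block, the number term or another scaling were not. Libraries with the same number had correlated deviations from their group means (0.704, 0.399 and 0.775 for numbers 1, 3 and 4, against -0.716 to 0.592 between different numbers, where deletion 1 with wild type 2 had 0.592 and deletion 4 with wild type 3 had 0.377), so the numbers were taken as pairs, from the data and not from the labels, which name no litter or batch. With no animal or culture named, p-values reflect library-to-library spread only, part of which may be technical. A single value was tested by an exact permutation over 35 label arrangements. The design had named such a test for sums over clusters and groups too, but these are given as descriptions.

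Relative depth, read from the steps between values below 0.2 FPKM, was 0.865 to 1.29 times that of wild type 1. Reads of 20 Hox genes are the smallest whole numbers that fit the values within 0.03 read; common factors cannot be seen, and no counting intervals were derived. The summed FPKM was 170809 to 209560 per library, of which Rn45s took 4.11% to 8.68%. Positions and exon overlaps are from GENCODE on GRCm38, the build that mm10 names. The Hox genes and the other lists were chosen with earlier results of these data known. Counts and sums cover all members, and 13 of the 14 tested Hox genes are named; 1 Hox gene and 1 retinoic acid gene are not reported singly here. Values of every library are given for the 10 highest in the wild type, the 6 with the lowest p and those passing with the block. Alternatives were another pseudocount (0.1), filter (0.5 FPKM or none), 2 scalings, the block, a term for numbers 1 and 2 against 3 and 4, numbers 3 and 4 alone, no trend, and each library left out. Tables and figures used matplotlib 3.10.9, pandas 2.3.3 and numpy 2.4.6 under Python 3.11.15.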

Additional observations from a re-analysis of the deposited data

Results flagged for a closer look

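Among the 4 wild-type libraries, wild type 2 lay far above the other 3 for 3 trunk Hox genes, by Dixon's 95% limit on the gap to the nearest library. Hoxb9 was at 2.415 FPKM against 0.166 to 0.296 FPKM in the others, Hoxc6 at 0.4981 FPKM against 0.0202 to 0.0401 FPKM, and Hoxa6 at 0.6382 FPKM against 0 to 0.103 FPKM. The limit was applied to the 23 Hox genes that reached 0.1 FPKM in a wild-type library, and chance passes it in about 1 of 20 groups of libraries. No cause was tested.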

How the results depend on the processing

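The log2 fold changes of Hoxa2 to Hoxa5, Hoxc4, Hoxc5, Hoxd3 and Hoxd4 stayed below 0 under all 17 alternatives. Over these, the adjusted p in limma ran from 0.00989 to 0.296 for Hoxa2 (below 0.05 in 5), from 0.00859 to 0.259 for Hoxa5 (3) and from 0.0440 to 0.445 for Hoxa4 (1). The count of Hox genes called, 0 with all libraries as deposited, was 1 (Hoxa2) with equal totals without Rn45s or with median-ratio scaling, 2 with the replicate block alone or with median-ratio scaling (Hoxa2 and Hoxa5, the last setting chosen after seeing the data) and 3 with the term for numbers 1 and 2 (Hoxa2, Hoxa4 and Hoxa5). It stayed 0 with every library left out in turn. Over all genes the count, 98 as reported, was 62 without a filter, 156 with median-ratio scaling, 366 with the replicate block (251 lower), 720 with the number term, 608 with block and scaling (275 lower), and 4 to 72 with 1 library left out (4 without wild type 3 or deletion 4, 12 without deletion 3, 35 without wild type 2, 40 without wild type 1, 53 without wild type 4). The share of lower calls, 53 of 98, was 75 of 156 with median-ratio scaling.

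Signs in Hoxb turned. The median of all genes, -0.042 as deposited, was 0.027 with equal totals and -0.0016 with median-ratio scaling, so these scalings moved all genes by about as much as the Hoxb genes. Above 0 were Hoxb2 (0.064 with equal totals, 0.033 with median-ratio scaling), Hoxb3 (0.027 with equal totals), Hoxb5 (0.0089 with equal totals) and Hoxb6 (0.13 with the replicate block, which equals the value without wild type 2, 0.18 with block and scaling, 0.036 with the number term). With 1 library left out the range was -0.078 to 0.039 for Hoxb2, -0.041 to 0.059 for Hoxb4, -0.19 to 0.095 for Hoxb5, -0.32 to 0.17 for Hoxb6 and -0.073 to 0.068 for the log2 ratio of Hoxc4 to Hoxd4. The cause was not tested. The median of the 14 genes ran from -0.23 to -0.05 with 1 library left out; without deletion 4 it was -0.046, where that of all genes was -0.053. Most of the 19 low genes rest on few reads.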

Other observations

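Of the 7 transcripts listed as Hox noncoding transcripts, 1 reached the minimum for testing. Hotairm1, a noncoding RNA of the Hoxa cluster, was at 0.112, 0.122 and 0.146 FPKM in deletion libraries 1, 3 and 4, against 0.631, 0.196, 0.254 and 0.554 FPKM in wild-type libraries 1 to 4. The groups did not overlap, but the gene was below the minimum and was not tested. Hoxaas2, whose exons overlap those of Hoxa3 on the other strand, was at 1.72 ± 0.442 FPKM (SD, n = 3) after deletion and 2.14 ± 0.283 FPKM (SD, n = 4) in the wild type, with overlapping groups (limma, adjusted p = 0.836). Of 14 genes listed as lying near the clusters that were in the table, 10 were tested, and none had an unadjusted or adjusted p below 0.05 in limma. Among them Skap2, a neighbour of the Hoxa cluster, was at 4.36 FPKM after deletion and 5.45 FPKM in the wild type (limma, adjusted p = 0.685).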
